A study of Mus musculus with 6 samples.

Results

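The large-subunit ribosomal proteins are the proteins that, together with ribosomal RNA, build the 60S subunit of the cytoplasmic ribosome. They were taken as the protein-coding rows of the deposited table whose gene symbol follows the Rpl or Rplp naming of these proteins, paralogs such as Rpl22l1 and Rpl39l included, and no expression value was used to choose them. This gave 52 genes of the 55774 rows listed. The samples were pools of 10 wild-type ICR mouse blastocysts, the preimplantation embryo with its outer trophectoderm and inner cell mass, from females aged 6 to 8 weeks. All embryos were cultured for 75 hours in CZB medium with extracellular vesicles from human Fallopian tubes, and 3 libraries received vesicles from women with endometriosis (oEV-EMT) and 3 received vesicles from women without it (oEV-ctrl). The donors of the oEV-ctrl vesicles had uterine fibroids according to the sample labels and cervical intraepithelial neoplasia according to the methods of the study, and embryos are called two-cell embryos in the labels and zygotes in the methods. There was no group without vesicles, so the comparison sets one kind of vesicle against the other. Nothing in the labels says that the 3 libraries of a group came from separate vesicle preparations, and p-values therefore measure only the spread between these libraries, which may be technical.

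The ribosome translates messenger RNA in every cell. The large subunit forms peptide bonds, carries the stalk on which translation factors act, and holds the tunnel through which the growing chain leaves. Messenger RNAs of ribosomal proteins are among the most abundant of growing cells, and most of them begin with a run of pyrimidines, the 5′ terminal oligopyrimidine (TOP) motif, through which their translation is controlled together. A blastocyst makes its own ribosomes from its own genome, after the maternal stores of the egg have been used. A few large-subunit proteins have an additional, often tissue-restricted, gene, such as Rpl3l in muscle and Rpl10l and Rpl39l in the testis.

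Sequences of 2 kinds bear on the results and are printed here in lower case. The first is the pyrimidine run near the transcription start that marks these genes as a group. RefSeq start sequences (GRCm38.p6) were matched by symbol for 40 of the 52 genes, and a run of at least 8 pyrimidines (C or T only, on the strand of the gene) between 20 bases before and 50 bases after a start was found for 32 of the 40. Such a run was present for 28.5% of all 27025 symbols in the same table, and a run of at least 10 was present for 29 of the 40 genes against 13.8% of all symbols. The letters CCGGAAG, searched on both strands of the 300 bases around the start, were found for 15 of the 40 genes and for 9.93% of all symbols. A match is a description of these windows and not a site. The following windows of 30 bases show in capitals the longest run within that searched span for genes whose values are described below, with the GRCm38.p6 position and strand of each.
Rpl36al, chr12:69184020-69184049, minus strand: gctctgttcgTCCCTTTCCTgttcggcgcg
Rpl36a, chrX:134585672-134585701, plus strand: cggctctagCCTCTCTCTTTCCgagctgct
Rpl39, chrX:37085173-37085202, minus strand: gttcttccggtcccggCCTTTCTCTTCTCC
Rpl41, chr10:128549119-128549148, minus strand: cgccattaaatagcagtaggCCTCCCTCTC
Rpl23, chr11:97782404-97782433, minus strand: gagtgggcggggCCTCCCgttcatatccca
Rpl39l, chr16:10170209-10170238, plus strand: ctagctcccaggCCTTTCCggatttccggt
Rpl7l1, chr17:46782660-46782689, minus strand: gcctctctaccccgCCCggtgaggctgcgc
The longest run had 14 bases in Rpl39, 13 in Rpl36a and 10 in Rpl36al and Rpl41. It had only 6 in Rpl23, 7 in Rpl39l and 3 in Rpl7l1, whose window also holds longer runs that lie before the searched span. In Rpl39, Rpl36a, Rpl36al and Rpl41 the run began at base 37, 28, 29 and 41 after the RefSeq start, not at its first base. The runs of Rpl39 and Rpl41 reached the end of the searched span, so they may be longer than given. The run did not separate the genes by their difference between groups: the median log2 difference was -0.02 over the 31 tested genes with a run of at least 8 and -0.02 over the 8 without.

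The second kind is the coding sequence of 2 pairs of near copies, which decides whether their reads can be told apart. The coding sequences below are from GENCODE M21 transcripts on GRCm38, with the bases that differ within a pair in capitals. The first pair is Rpl39 on chromosome X (37082520 to 37085402, minus strand) and Rpl39l on chromosome 16 (10170226 to 10174911, plus strand), which differ at 23 of 153 bases.
Rpl39: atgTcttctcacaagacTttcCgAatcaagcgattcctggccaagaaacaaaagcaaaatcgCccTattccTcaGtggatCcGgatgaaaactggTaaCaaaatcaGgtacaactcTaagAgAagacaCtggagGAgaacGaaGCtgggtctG
Rpl39l: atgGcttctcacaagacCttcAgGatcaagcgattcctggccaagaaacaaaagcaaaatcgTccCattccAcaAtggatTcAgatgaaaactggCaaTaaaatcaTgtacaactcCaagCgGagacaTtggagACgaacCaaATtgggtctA
The second pair is Rpl36a on chromosome X (134585654 to 134588062, plus strand) and Rpl36al on chromosome 12 (69182731 to 69184083, minus strand), of which the first 150 coding bases are shown, with 23 differences.
Rpl36a: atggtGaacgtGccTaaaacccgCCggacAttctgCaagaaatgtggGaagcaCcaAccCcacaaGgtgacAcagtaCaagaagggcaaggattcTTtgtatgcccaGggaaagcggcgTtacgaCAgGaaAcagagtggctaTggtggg
Rpl36al: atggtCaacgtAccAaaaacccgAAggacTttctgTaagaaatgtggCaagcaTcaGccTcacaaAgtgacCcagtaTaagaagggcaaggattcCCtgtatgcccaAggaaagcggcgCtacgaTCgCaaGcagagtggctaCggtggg
Over the whole coding sequence Rpl39 and Rpl39l were 85.0% identical and their longest shared stretch had 38 bases, while Rpl36a and Rpl36al were 87.7% identical with a longest shared stretch of 24 bases. Neither pair shared a stretch of 50 bases. The shortest member, Rpl41, codes for a peptide of 25 codons and is shown because it is also one of the most abundant.
Rpl41: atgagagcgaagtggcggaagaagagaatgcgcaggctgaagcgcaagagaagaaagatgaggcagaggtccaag

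The deposited values are FPKM, fragments per kilobase of transcript per 1000000 fragments, so levels are per length. Between genes they may be set side by side only as listed. Of the members, 16 held under 50% of the joint FPKM of the genes that share stretches of 50 bases with them. No counts were used here, but low values rose in steps, and the smallest common step placed the libraries at relative depths differing by up to 2.07 times, with 43.0 to 73.5 steps per FPKM and kilobase in the oEV-EMT libraries and 35.5 to 64.7 in the oEV-ctrl libraries. One unannotated entry, new_gene48, held 15.3% to 19.0% of all FPKM in the oEV-EMT libraries and 19.7% to 31.5% in the oEV-ctrl libraries, and mitochondrially encoded genes held 3.93% to 4.84% and 5.96% to 7.45%. In both cases the ranges of the groups did not overlap. FPKM are shares of a library, and the part that these entries had in the differences below was not tested beyond the alternative scalings. The tissue label held up: all 10 trophectoderm, 8 epiblast and 8 primitive endoderm markers passed the expression filter, and 0 of 10 markers of cumulus or oviduct cells did, none of them above 0.610 FPKM in any library. Dab2 was in both the trophectoderm and the primitive endoderm list and enters the counts and sums of both. Summed epiblast markers stood at 107 to 148 FPKM in oEV-EMT and 60.3 to 104 in oEV-ctrl, with 3 of 8 (Nanog, Pou5f1 and Fgf4) higher in oEV-EMT at an unadjusted p of at most 0.05. The trophectoderm sum, at 4798 to 6515 and 5390 to 6173 FPKM, and the primitive endoderm sum, at 136 to 266 and 183 to 241 FPKM, overlapped between groups, with 1 of 10 (Elf5) and 2 of 8 (Gata4 and Sox17) higher. At the same p, 12.8% of all genes tested were higher. The log2 difference was below 0 for 3 of the 8 epiblast, 6 of the 10 trophectoderm and 3 of the 8 primitive endoderm markers. The part of these lineage markers in any difference of the ribosomal proteins was not tested. In pools of whole embryos, a change in the share of cells of one type and a change in RNA per cell cannot be told apart.

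The members were expressed at high levels and in a nearly fixed order. The mean over the 6 libraries was at least 1000 FPKM for 18 genes, between 100 and 1000 for 29 and below 100 for 5, with a median of 632 FPKM. These are levels as listed. Of the 5 below 100 FPKM, Rpl29 and Rpl21 held 0.516% and 0.182% of the joint FPKM of the genes that share their sequence. Together the 52 genes held 3.26% to 3.74% of all FPKM in the oEV-EMT libraries and 3.14% to 3.64% in the oEV-ctrl libraries, or 3.88% to 4.54% and 4.47% to 4.58% when new_gene48 was left out of the total. Spearman's rho between the group means was 0.979 across the 52 genes, which are not independent replicates. The spread within a group was small, with a median coefficient of variation of 14.3% in oEV-EMT and 11.1% in oEV-ctrl over the tested members.

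**Figure D1:**
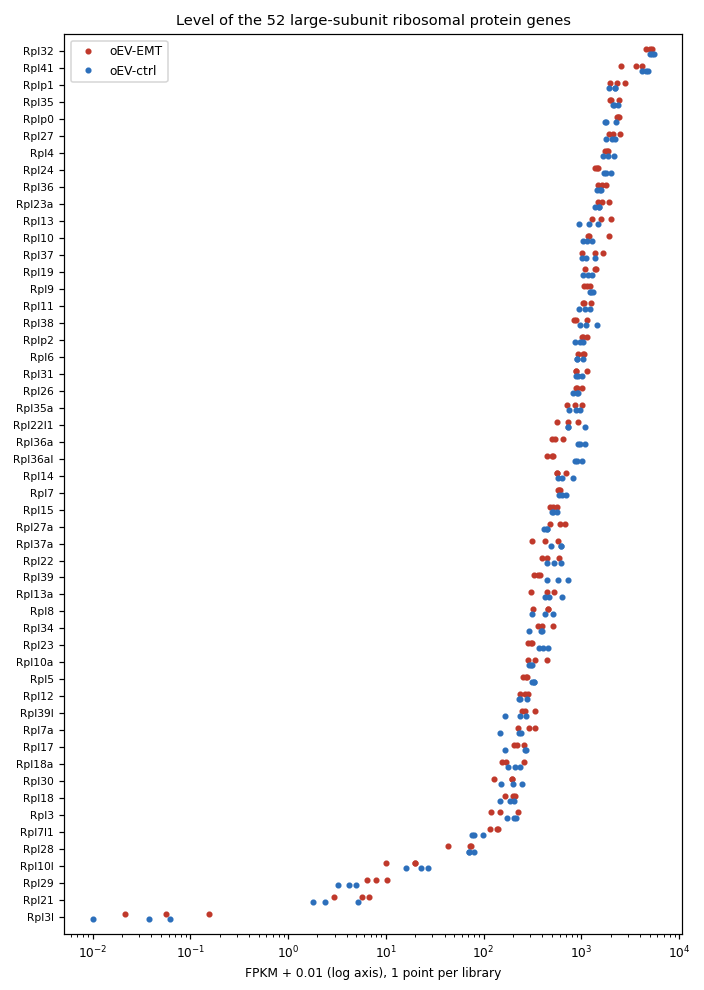
FPKM of each of the 52 genes in each library on a log axis, after adding 0.01 so that a value of 0 can be drawn, with genes ordered by their mean over the 6 libraries. As listed, Rpl32 stands highest at a mean of 5136 FPKM, 47 genes lie at 100 FPKM or more, and Rpl10l, Rpl29, Rpl21 and Rpl3l fall below the rest. Rpl29 and Rpl21 hold 0.516% and 0.182% of the joint FPKM of the genes that share their sequence.

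Rpl32 had the highest listed value of the members, at 5073, 4597 and 5277 FPKM in oEV-EMT and 4996, 5567 and 5307 in oEV-ctrl. Rpl41 followed with 3651, 2524 and 4179 FPKM in oEV-EMT and 4218, 4778 and 4613 in oEV-ctrl, and every oEV-ctrl library was above every oEV-EMT library. With the genes that share its sequence added, Rpl41 stood at 5940 to 7567 FPKM in oEV-EMT and 8648 to 9297 in oEV-ctrl. Rpl32 with its own sharing genes had a mean of 5147 FPKM, so the order of Rpl32 and Rpl41 holds only as listed. Rplp1, Rpl35 and Rplp0 came next, with means of 2246, 2176 and 2156 FPKM over the 6 libraries. The ranges of these 3 genes overlapped, so their order among themselves is not resolved, whereas the lowest value of Rpl32 exceeded the highest of each of them. At the other end, Rpl3l, the muscle paralog of Rpl3, was listed at 0 in 1 oEV-ctrl library and at no more than 0.145 FPKM in the others. It was the 1 member that failed the expression filter of at least 1 FPKM in at least 3 libraries, which left 51 members tested.

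Across all 11924 genes tested with limma on log2(FPKM + 1), 0 passed the thresholds of the study, which is 0% of genes. Those thresholds are an adjusted p of at most 0.05 with an absolute log2 difference of at least 1. The study applied them with DESeq2 and reported differentially expressed genes in both directions, so its result and this 0 come from unlike methods. The lowest Benjamini-Hochberg adjusted p from limma was 0.0934, and 1831 genes had an unadjusted p of at most 0.05. No member reached the adjusted threshold either, with adjusted p from 0.101 to 0.985. The members are therefore described by their unadjusted p, by whether the groups overlap, and by the share of all genes for which the same holds.

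By that description, 4 of the 51 members were lower in oEV-EMT at an unadjusted p of at most 0.05, namely Rpl36al, Rpl36a, Rpl39 and Rpl23. This is 7.84% of the members, against 2.55% of all genes tested. The 2 members that were higher, Rpl29 and Rpl7l1, are 3.92% of the members against 12.8% of all genes. In 7 members the highest oEV-EMT library lay below the lowest oEV-ctrl library, which was 13.7% against 4.34% of all genes, and in 4 members the groups were apart in the other direction, 7.84% against 18.1%. The median log2 difference of all genes tested was 0.17, so the median gene, though not the summed FPKM, stood higher in oEV-EMT. The median of the members was -0.02, which is 0.19 below the median of all genes. Of the 51 members 38 were below that median and 27 were below 0, while 29.9% of all genes were below 0. Under median-of-ratios scaling, which brought the median of all genes to 0.01, 8 members were lower and 1 was higher at the same p, against 6.4% and 6.43% of all genes. The 4 genes lower in the unscaled values were among these 8, and Rpl41, Rpl24, Rpl37a and Rpl5 joined them. The median of the members relative to all genes was then -0.23, and 39 were below 0.

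**Figure D2:**
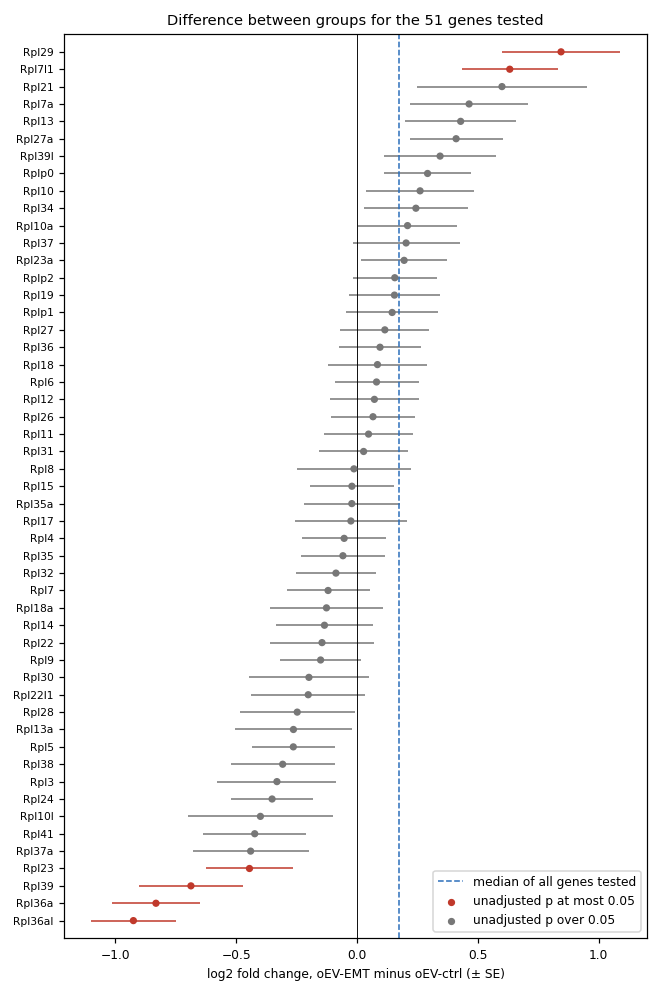
Log2 difference of oEV-EMT minus oEV-ctrl with its standard error for the 51 genes tested, with the dashed line at 0.17, the median of all 11924 genes. The points run from -0.93 for Rpl36al to 0.84 for Rpl29, 38 lie left of the dashed line, and the 6 red points are those with an unadjusted p of at most 0.05.

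Rpl36al and Rpl36a, which encode near-identical forms of the same ribosomal protein, had the largest differences of the members toward lower values. Rpl36al stood at 519, 449 and 499 FPKM in oEV-EMT and at 1027, 860 and 906 in oEV-ctrl. The groups did not overlap, and the highest oEV-EMT value was well below the lowest oEV-ctrl value. The log2 difference was -0.93 ± 0.18 (SE, n = 3 per group) with a limma adjusted p of 0.101. Rpl36a stood at 506, 647 and 539 FPKM in oEV-EMT and at 937, 1100 and 967 in oEV-ctrl, again without overlap, with a log2 difference of -0.83 ± 0.18 and an adjusted p of 0.118. When both genes were summed, the oEV-EMT libraries held 1053 ± 38.0 FPKM and the oEV-ctrl libraries 1933 ± 51.7 FPKM (SD, n = 3). An exact two-sided permutation test of that sum on the log2 scale gave p = 0.1, the smallest that 3 libraries against 3 can give. Since each gene was already without overlap in the same direction, that p was fixed in advance and adds no support.

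The share of Rpl36al within the pair overlapped between the groups. It was 50.7%, 41.0% and 48.1% in oEV-EMT and 52.3%, 43.9% and 48.4% in oEV-ctrl, and the exact permutation test of the log2 ratio gave p = 0.6. The sequences of both genes are partly shared with pseudogenes. Rpl36a-ps2, a processed pseudogene all of whose 50-base stretches also occur in Rpl36a, was listed at 410, 428 and 290 FPKM in oEV-EMT and at 593, 722 and 663 in oEV-ctrl. Rpl36a-ps3, which shares 81.6% of its stretches with Rpl36al, was listed at 96.4, 68.3 and 71.4 FPKM in oEV-EMT and at 196, 135 and 137 in oEV-ctrl. Adding every gene that shares such stretches left the log2 differences at -0.93 for Rpl36al and -0.83 for Rpl36a.

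Rpl39, a 51-codon protein in the wall of the exit tunnel, was the third member with a lower value. It was listed at 381, 358 and 328 FPKM in oEV-EMT and at 441, 730 and 582 in oEV-ctrl. The groups did not overlap, and the oEV-ctrl libraries were more spread than the oEV-EMT libraries. The log2 difference was -0.69 ± 0.22 with an adjusted p of 0.195. Its paralog Rpl39l, known from the testis, did not share that direction, at 266, 245 and 334 FPKM in oEV-EMT and 165, 237 and 271 in oEV-ctrl, with overlapping groups, a log2 difference of 0.34 ± 0.23 and an adjusted p of 0.502.

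The balance within this pair differed between the groups without overlap. Rpl39l made up 41.1%, 40.6% and 50.5% of the sum of the pair in oEV-EMT and 27.2%, 24.5% and 31.8% in oEV-ctrl. The log2 ratio of Rpl39l to Rpl39 was 1.03 higher in oEV-EMT, and the exact permutation test gave p = 0.1, again the smallest possible. This ratio is taken within a library and does not depend on the scaling between libraries. All 50-base stretches of Rpl39l are its own. Rpl39 held 71.5% of the FPKM of the genes that share its sequence, with Rpl39-ps as the main other one, and with those genes added its log2 difference was -0.66.

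**Figure D3:**
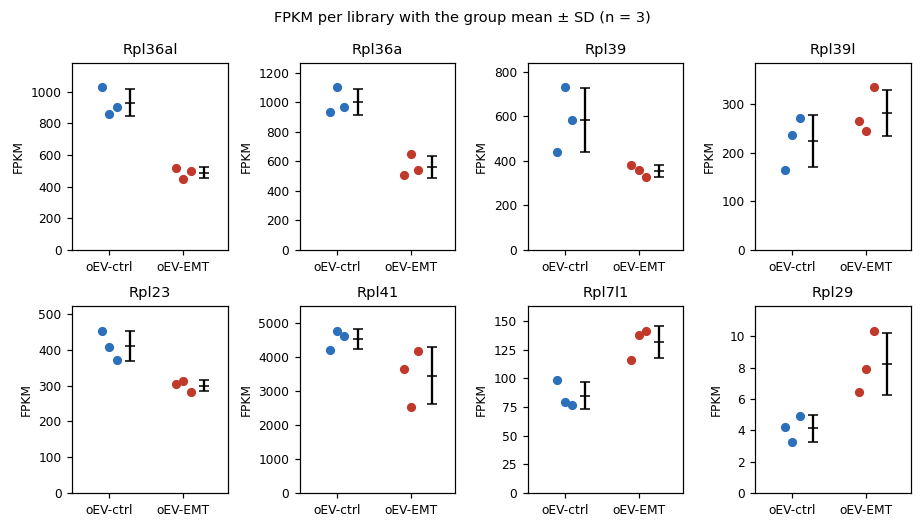
FPKM of 8 genes in each library, with the mean and SD of each group beside the points and each axis starting at 0. The oEV-EMT points lie below all oEV-ctrl points for Rpl36al, Rpl36a, Rpl39, Rpl23 and Rpl41 and above them for Rpl7l1 and Rpl29, while those of Rpl39l overlap.

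The other tunnel-exit proteins, which line or surround the opening where the nascent chain emerges and where chaperones and targeting factors dock, showed no difference of that size. Of the 9 genes of this group (Rpl4, Rpl17, Rpl19, Rpl22, Rpl23a, Rpl26, Rpl31, Rpl35 and Rpl39), Rpl39 alone passed the unadjusted threshold. The median of the 9 relative to all genes was -0.20, beside -0.19 for all members. Rpl4, a long protein whose loop reaches into the tunnel, had 1812 ± 66.4 FPKM in oEV-EMT and 1890 ± 239 in oEV-ctrl. Rpl22 and its paralog Rpl22l1, an RNA-binding pair, both overlapped between groups, with log2 differences of -0.15 and -0.20. Rpl22l1 made up 54.3% to 67.2% of the pair in the 6 libraries, so in these blastocysts the paralog was listed above its parent in every library.

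Rpl23, which lies near the subunit interface and is also known as a binder of Mdm2, was lower by a smaller margin. It stood at 304, 314 and 283 FPKM in oEV-EMT and at 453, 406 and 370 in oEV-ctrl, without overlap. The log2 difference was -0.45 ± 0.18 with an adjusted p of 0.276. The unadjusted p of this gene exceeded 0.05 when any 1 of oEV-EMT replicates 2 and 3 and oEV-ctrl replicates 1 and 2 was left out, with log2 differences between -0.48 and -0.37 in those 4 fits. The processed pseudogene Gm9794, which shares 86.6% of its stretches with Rpl23, was listed at a mean of 647 FPKM, above Rpl23 itself, and with it added the log2 difference was -0.33.

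Rpl29 and Rpl7l1 were the members with higher values. Rpl7l1, a paralog of Rpl7, was listed at 116, 138 and 142 FPKM in oEV-EMT and at 98.7, 79.7 and 76.8 in oEV-ctrl. The groups did not overlap, and the log2 difference was 0.63 ± 0.20 with an adjusted p of 0.195. Under median-of-ratios scaling it was 0.44 and the gene no longer passed the unadjusted threshold. Rpl7 itself had 592 ± 12.8 FPKM in oEV-EMT and 645 ± 56.8 in oEV-ctrl, with a log2 difference of -0.12. The paralog held a larger share of its pair in oEV-EMT than in oEV-ctrl, with a ratio of Rpl7l1 to Rpl7 of 0.200 to 0.235 against 0.113 to 0.154 in oEV-ctrl, without overlap (exact permutation p = 0.1). The coding sequences of Rpl7 and Rpl7l1 were 64.8% identical with a longest shared stretch of 10 bases.

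The listed value of Rpl29 is a small part of the summed FPKM of the genes that share its sequence. Rpl29, a protein of the subunit bridge region, was listed at 6.45, 7.96 and 10.4 FPKM in oEV-EMT and at 4.24, 3.24 and 4.91 in oEV-ctrl, with a log2 difference of 0.84 ± 0.25 and an adjusted p of 0.175. It shared stretches of 50 bases with 41 other listed genes and held 0.516% of their joint FPKM, and the processed pseudogenes Gm8210 and Gm13841 were listed at means of 562 and 401 FPKM. With all of them added, the sum was 1404 ± 220 FPKM in oEV-EMT and 997 ± 107 in oEV-ctrl, still without overlap, and the log2 difference was 0.49. The direction held, but which locus the reads came from cannot be told from the table.

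Rpl21 was the clearest case in which the listed value and the sum with its copies point in opposite directions. The gene was listed at 6.77, 2.94 and 5.65 FPKM in oEV-EMT and at 2.40, 5.20 and 1.78 in oEV-ctrl, with overlapping groups and a log2 difference of 0.60 ± 0.35. It shared stretches with 65 other listed genes and held 0.182% of their joint FPKM, most of which was listed under Gm10163, Gm10240 and Gm13370. The sum was 1905, 1911 and 2051 FPKM in oEV-EMT and 2946, 2360 and 2429 in oEV-ctrl, without overlap, with a log2 difference of -0.39.

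Shared sequence was a property of nearly all members. A total of 50 of the 52 genes shared stretches of 50 bases with at least 1 other listed gene, 16 held under 50% of the joint FPKM, and 11 held at least 90%. With all sharing genes added to each member, 5 members were lower (Rpl36a, Rpl36al, Rpl39, Rpl30 and Rpl21) and 3 higher (Rpl27a, Rpl7l1 and Rpl29) at an unadjusted p of at most 0.05, against 2.56% and 12.8% of all genes in that fit, and the median relative to all genes was -0.21. Rpl30 and Rpl27a are named because they entered here, after their values were seen. Rpl30 had 173 ± 38.0 and 199 ± 47.7 FPKM as listed, with a log2 difference of -0.20, and the log2 difference became -0.63 with its copies.

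**Figure D4:**
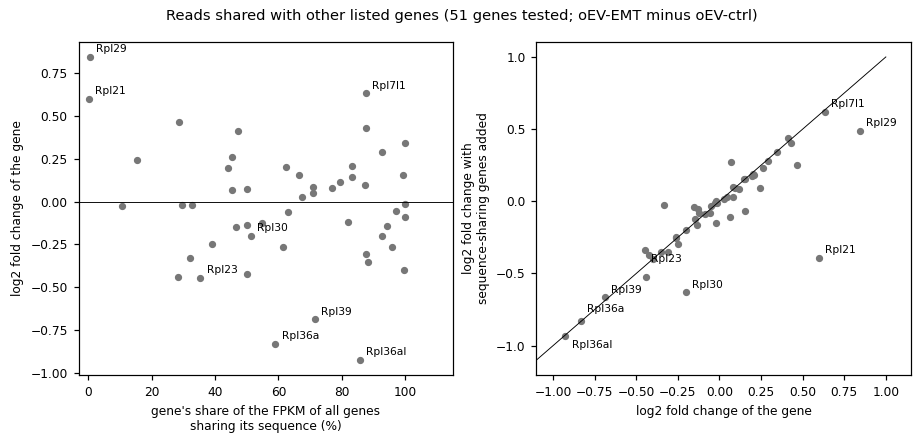
Left, the log2 difference of each of the 51 genes against the percentage it holds of the summed FPKM of all listed genes that share stretches of 50 bases with it; right, its log2 difference after adding those genes against the difference before. Rpl29 and Rpl21 hold under 1% on the left, and Rpl21 and Rpl30 fall farthest below the diagonal on the right, while Rpl36al, Rpl36a, Rpl39 and Rpl7l1 lie on it.

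The genes of the stalk proteins, which recruit the elongation factors to the ribosome, passed no threshold. Rplp0, the base of the stalk, was listed at 2352, 2432 and 2313 FPKM in oEV-EMT and at 2289, 1768 and 1782 in oEV-ctrl. The groups did not overlap, although the highest oEV-ctrl library came close to the oEV-EMT values, and the log2 difference was 0.29 ± 0.18 with an adjusted p of 0.462. Rplp1, Rplp2 and Rpl12, the other stalk genes, had log2 differences of 0.14, 0.16 and 0.07 with overlapping groups. The ratio of Rplp1 to Rplp0 was 1.00 ± 0.191 in oEV-EMT and 1.12 ± 0.241 in oEV-ctrl, and that of Rplp2 to Rplp0 was 0.454 ± 0.0419 and 0.498 ± 0.0446, with exact permutation p = 0.5 and p = 0.3. Relative to the median of all genes, these 4 genes lay at -0.02.

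Rpl5 and Rpl11 form, with the 5S ribosomal RNA, a particle of the large subunit that binds Mdm2 when ribosome assembly is disturbed. Rpl5 was listed at 272, 280 and 253 FPKM in oEV-EMT and at 327, 325 and 314 in oEV-ctrl, without overlap and with little spread in either group. The log2 difference was -0.26 ± 0.17, with an adjusted p of 0.486. Rpl11 was listed at 1053, 1079 and 1254 FPKM in oEV-EMT and at 1236, 955 and 1093 in oEV-ctrl, with a log2 difference of 0.05. The ratio of Rpl5 to Rpl11 was 0.240 ± 0.0328 in oEV-EMT and 0.297 ± 0.0388 in oEV-ctrl, without overlap (exact permutation p = 0.1).

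The members grouped here as joining late or touching the small subunit, Rpl10, Rpl24, Rpl29 and Rpl41, went in different directions. The group is not complete, as Rpl23, which lies near the subunit interface, was not placed in it. Rpl24 was listed at 1376, 1466 and 1495 FPKM in oEV-EMT and at 2022, 1719 and 1804 in oEV-ctrl, without overlap, with a log2 difference of -0.35 ± 0.17 and an adjusted p of 0.352. Rpl41 had a log2 difference of -0.42 ± 0.21 and an adjusted p of 0.369. The difference was -0.21 without oEV-EMT replicate 2, the library at 2524 FPKM, and -0.58 without oEV-EMT replicate 3. Rpl10, which completes the peptidyl transferase centre and is X-linked, had 1431 ± 429 FPKM in oEV-EMT and 1166 ± 125 in oEV-ctrl. Its log2 difference of 0.26 was 0.03 without oEV-EMT replicate 3, the library at 1926 FPKM, and 0.38 without oEV-EMT replicate 1. Its autosomal paralog Rpl10l stood at 10.1 to 20.1 FPKM in oEV-EMT and 16.0 to 26.7 in oEV-ctrl, at most 2.01% of the pair. The 3 X-linked members thus did not share a direction, with Rpl36a and Rpl39 lower and Rpl10 not lower.

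The remaining genes at the ends of the range did not pass the unadjusted threshold. Rpl37a was listed at 574, 425 and 312 FPKM in oEV-EMT and at 488, 625 and 624 in oEV-ctrl, so the groups overlapped, with a log2 difference of -0.44 ± 0.24. That difference was -0.22 without oEV-EMT replicate 3 and -0.66 without oEV-EMT replicate 1. Rpl7a had 285 ± 57.8 and 208 ± 51.6 FPKM and Rpl13 had 1630 ± 353 and 1212 ± 265 FPKM in oEV-EMT and oEV-ctrl, with log2 differences of 0.46 and 0.43, which were 0.24 and 0.26 without oEV-ctrl replicate 2. The difference of Rpl7a was 0.63 without oEV-EMT replicate 3, and that of Rpl13 was 0.58 without oEV-EMT replicate 1 or without oEV-ctrl replicate 1. Rpl3, the core protein beside the peptidyl transferase centre, had a log2 difference of -0.33 ± 0.25, which became -0.02 when the genes sharing its sequence were added. It was -0.13 without oEV-EMT replicate 3 and -0.58 without oEV-EMT replicate 2. Rpl27a was the 1 further member without overlap, at 679, 477 and 609 FPKM in oEV-EMT and 451, 450 and 414 in oEV-ctrl. The 45 members that did not pass the unadjusted threshold had log2 differences between -0.44 and 0.60.

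The shortest members tended toward lower values. Of the 10 tested members with at most 110 codons, 7 had a log2 difference below 0 and their median was -0.37, while of the 41 longer ones 20 were below 0 and their median was 0.03. Rpl41, Rpl39, Rpl38, Rpl37a, Rpl36a and Rpl36al were among the short genes with lower values, and Rpl39l, with the same 51 codons as Rpl39, was among those with higher values. Across the 51 members Spearman's rho of the log2 difference was 0.229 with coding length, 0.060 with transcript length and 0.00824 with mean level. The points share the same 6 libraries and these values are a description. The cut at 110 codons was set after the values were seen.

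**Figure D5:**
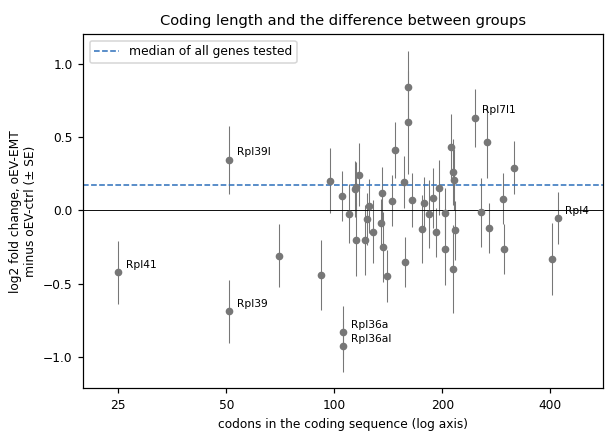
Log2 difference of oEV-EMT minus oEV-ctrl, with its standard error, against the number of codons on a log axis for the 51 genes tested. Rpl41 at 25 codons, Rpl39 at 51 and Rpl36a and Rpl36al at 106 lie below 0, Rpl39l at 51 lies above it, and the genes with over 110 codons lie on both sides.

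Other genes of translation were counted by the same rules. Of the 32 small-subunit ribosomal protein genes, Rps23 and Rps28 were lower and 0 were higher at an unadjusted p of at most 0.05. These are 6.25% and 0%, against 2.55% and 12.8% of all genes. The median of the 32 relative to all genes was -0.22, and 25 were below the median of all genes. The large-subunit value of -0.19 with 38 of 51 below it was close to this, and the difference between the subunits was not tested. Rps28, a short protein of the small subunit, had 475 ± 90.0 FPKM in oEV-EMT and 775 ± 57.6 in oEV-ctrl, with a log2 difference of -0.72 ± 0.20. The 12 elongation factors and other TOP genes had 0 lower and 0 higher, against 2.55% and 12.8% of all genes, and a relative median of -0.11. Of 44 genes for assembly factors of the 60S subunit, which are needed to build it but are not part of it, 0 were lower and 4 were higher (Nle1, Gnl3l, Tma16 and Gnl3), which is 9.09% against 12.8% of all genes, with a relative median of 0.04. Gnl3, the nucleostemin gene, had 142 ± 41.8 FPKM in oEV-EMT and 96.5 ± 4.10 in oEV-ctrl.

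The mean of the tested members on the log2 scale was most like the profile of Hivep1 over the 6 libraries among all other genes tested, with a Pearson r of 0.994, followed by Gm42979 with 0.991 and Trip11 with 0.988. These are genes of 0.364 to 4.71 FPKM chosen for their likeness over only 6 libraries, and the coefficients describe that choice.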

How the data were processed

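RNA was measured in 6 libraries of mouse blastocysts, 3 per group, made after oligo(dT) selection with a kit that is not stated to keep strand. The authors aligned reads, assembled transcripts with StringTie on mm10, per the labels, and deposited 1 FPKM value per gene and library. The methods name TPM, but the deposited FPKM columns sum to more than 1000000 and to different totals; the aligner is not given in the sources used here. Reads shared by near copies could be split between them.

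Identifiers were matched to GENCODE M21 (GRCm38), and 55227 of 55487 Ensembl identifiers matched. Genes reaching 1 FPKM in 3 or more libraries were tested as log2(FPKM + 1) with limma 3.58.1 (R 4.3.3; trend and robust variance, Benjamini-Hochberg adjustment), and a log2 difference on this scale understates changes of low genes. The fit was tested on simulated data. For single ratios and sums, an exact permutation test over libraries was used, two-sided (SciPy 1.17.1). Shared sequence was measured in stretches of 50 bases on either strand; genes sharing at least 10% of the stretches of either gene were added. Relative depth came from the first common step of FPKM times kilobases in single-exon genes. Alternatives were scalings, filters, the pseudocount, the replicate block, variance settings, leaving out each library and adding pseudogenes; library weights, a scaling without new_gene48 and sequence-sharing genes were added after seeing the data. Named were the role groups and paralogs with their parents, the 5 lowest and 5 highest log2 differences, the 5 highest levels and 3 most alike genes. The members, lists and tests were chosen with earlier results of these data known.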

Additional observations from a re-analysis of the deposited data

How the results depend on the processing

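Without a replicate block, 0 genes passed the thresholds of the study in limma, with 1831 at an unadjusted p of at most 0.05. Whether the replicate numbers pair the libraries cannot be told from deviations around group means of only 3 libraries. The correlations of these deviations ran from -0.0442 to 0.119 for the same number and from -0.135 to 0.122 for different numbers. With the replicate block 21 genes passed, 3 members were lower and 2 higher, against 2.36% and 11.2% of all genes. Weighting libraries by quality gave 104 genes, 7 members lower and 5 higher, against 5.02% and 18.4% of all genes. Leaving out 1 library gave 0 to 17 genes (4 without oEV-EMT replicate 1, 1 without oEV-EMT replicate 3 and 17 without oEV-ctrl replicate 3). In those fits 3 to 5 members were lower against 4, beside 1.69% to 4.84% of all genes. Between 2 and 4 were higher against 2 (4 without oEV-EMT replicate 2 and without oEV-ctrl replicate 1), beside 7.88% to 13.9% of all genes. With fewer libraries, groups are more easily apart. Members lower without overlap numbered 8 to 12 against 7, while the share of all genes was 5.89% to 12.6% against 4.34%. The count was 12 without oEV-EMT replicate 1, beside 12.6%, and 11 without oEV-ctrl replicate 1, beside 7.32%.

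Median-of-ratios scaling gave 8 members lower, 1 higher and 15 lower without overlap, against 6.4%, 6.43% and 10.3% of all genes. Upper quartile scaling gave 9, 1 and 14, against 6.68%, 6.01% and 10.7%, and scaling to a sum of 1000000 gave 5 higher, against 16.1%. The median of the members relative to all genes kept its sign, from -0.23 under both of the first scalings to -0.04 with no filter. For 33 named members and 18 settings, 526 of 594 values kept their side of the unadjusted threshold and, where not past it, lay within the spread between libraries, 32 moved by more than that spread, and 9 calls were lost, 7 of Rpl23 and 2 of Rpl7l1. A further 26 values passed the threshold without a change of sign, and with 1 library left out these were values of Rpl13, Rpl21, Rpl3, Rpl37a, Rpl41, Rpl7a and Rplp0. Rpl21 turned from 0.60 to -0.39 and passed the threshold with its sequence-sharing genes added. In all, 37 values of 13 genes changed sign, 0 of them in genes that passed the threshold before.

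Counts were not used here, so no counting interval is given, and with 3 libraries against 3 no exact permutation test can go below 0.1.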
